A study of Mus musculus with 17 samples.

Results

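A set of 7 genes that code for hypothalamic neuropeptide precursors was examined in RNA from the mouse dorsal hippocampus: Avp (arginine vasopressin), Oxt (oxytocin), Trh (thyrotropin-releasing hormone), Pmch (melanin-concentrating hormone), Hcrt (hypocretin, also called orexin), Pomc (pro-opiomelanocortin) and Crh (corticotropin-releasing hormone). They were 7 of the 24498 genes in the count table. The set was chosen by a measured value: Avp was selected on its rank between KO Tau males and WT PBS males, where it stood second after Acss2 among 15098 genes ordered by the edgeR test, and the other 6 genes were added as further peptides of the hypothalamus. The values of that comparison are therefore given below as a description, and where calls are counted in it, no test of the members is read from them.

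The series held 17 libraries of poly(A) RNA from slices of dorsal hippocampus, which takes in the CA fields and dentate gyrus. Animals were either wild type (WT) or constitutive knockouts (KO) of Acss2, whose enzyme turns acetate into acetyl-CoA, and both lines came from homozygous crosses within the same stock. At 6 months of age they received either tau protein purified from the frontal cortex of Alzheimer's disease patients (Tau) or phosphate-buffered saline (PBS) by injection into the hippocampus, and per the study's methods the tissue was studied 6 months later. There were 3 libraries from each male group (KO or WT, with PBS or Tau), 3 from KO Tau females and 2 from WT Tau females, and no group of PBS-injected females was included. Every animal therefore carried an injection. The labels' extraction protocol opens with perfusion by saline and paraformaldehyde, a step that the study's methods give for histology. Libraries are named here by the number in their label.

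Hypothalamic neuropeptides are made as large precursors that are cut and amidated inside dense-core granules. Vasopressin and oxytocin are best known from the magnocellular neurons of the paraventricular and supraoptic nuclei, whose axons reach the posterior pituitary, while Pmch and Hcrt mark separate neurons of the lateral hypothalamus. Pomc marks neurons of the arcuate nucleus and cells of the pituitary, Trh and Crh drive pituitary hormone release from the paraventricular nucleus, and Crh is also made by interneurons of the hippocampus and neocortex.

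Avp and Oxt are neighbours on mouse chromosome 2 (GRCm38), at chr2:130580620-130582554 on the minus strand and chr2:130576173-130577054 on the plus strand. They face each other across a gap of 3565 bases. Acss2 is on the same chromosome at chr2:155517948-155585724, 24.9 Mb from Avp. So that the letters in front of this pair can be compared with those of the other members, the 60 bases before the RefSeq start of each gene (GRCm38.p6) are shown, 5′ to 3′ on the gene's own strand, with each TATAA or ATAAA in capitals, for the 6 genes that had an entry. These come from chr2:130582589-130582648 for Avp, chr2:130576109-130576168 for Oxt, chr6:92244651-92244710 for Trh, chr10:88091012-88091071 for Pmch, chr11:100762932-100762991 for Hcrt and chr12:3954885-3954944 for Pomc.
Avp: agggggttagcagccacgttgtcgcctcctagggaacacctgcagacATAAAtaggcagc
Oxt: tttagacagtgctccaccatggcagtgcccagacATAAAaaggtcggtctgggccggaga
Trh: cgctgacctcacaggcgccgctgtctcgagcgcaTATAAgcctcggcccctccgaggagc
Pmch: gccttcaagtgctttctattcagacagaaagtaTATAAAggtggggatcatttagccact
Hcrt: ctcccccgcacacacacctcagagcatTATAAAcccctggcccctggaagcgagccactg
Pomc: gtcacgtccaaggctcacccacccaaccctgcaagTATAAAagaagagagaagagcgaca

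The motifs TATAA and ATAAA, which overlap in TATAAA, were chosen after these sequences were seen. One of them began 20 to 40 bases before the start, on the gene's strand, in 5 of the 6 genes. Among all 32851 promoters of the RefSeq table the share was 5.72% on the gene's strand and 8.11% on either strand. In Avp the ATAAA began 13 bases before the RefSeq start, outside that window, and the GENCODE start of Avp lies 34 bases further downstream. The longest run of letters shared by the windows of Avp and Oxt was CAGACATAAA, 10 bases that began 18 bases before the Avp start and 31 bases before the Oxt start. A match of letters is a description and says nothing about which factor bound there.

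Total counts ran from 14183131 to 22463635 per library, so that 3 counts, taken as the limit a count of 0 allows, came to 0.134 to 0.212 CPM (the count divided by the library's total and brought to a common scale). These limits cover counting error only. Acss2 followed its label in every library, at 44.0 to 54.6 CPM in the 8 WT libraries and 3.08 to 8.81 CPM in the 9 KO libraries. As sums, markers of the hippocampus were present throughout, with 7 dentate granule cell genes at 142 to 588 CPM and 8 pyramidal cell genes at 457 to 1113 CPM. Male KO PBS 752 had both of the lowest sums and was the lowest library for many, though not all, of these genes. There C1ql2 was at 4.96 CPM (median over all libraries 88.4), Dsp at 0.907 (31.7), Lct at 1.21 (38.8) and Fibcd1 at 19.8 (148). Some libraries stood apart in markers of neighbouring tissue. Male KO Tau 713 had 5418 CPM over 14 choroid plexus genes, against 226 to 1115 CPM in the other 16. Male KO PBS 752 had 497 CPM over 9 striatal genes, against 78.5 to 175 CPM elsewhere. Among females, 4 of the 5 libraries had 219 to 417 CPM over 8 thalamic genes, against 72.7 to 186 CPM in all others.

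All 7 genes were expressed at low levels. The median over the 17 libraries was 2.47 CPM for Crh, 1.49 for Pomc, 0.954 for Avp, 0.684 for Trh, 0.353 for Oxt, 0.0941 for Pmch and 0.0579 for Hcrt. Per kilobase of exon, the scale on which genes can be compared with each other, the median levels were 1.87 CPM per kb for Crh, 1.65 for Avp, 1.13 for Pomc, 0.657 for Oxt, 0.494 for Trh, 0.126 for Pmch and 0.0773 for Hcrt. Between 51.9% (Crh) and 69.7% (Hcrt) of all genes in the table had a higher median CPM. In total Avp rested on 369 counts over 17 libraries, Oxt on 153, Trh on 276, Pomc on 492 and Crh on 1060, while Pmch had 38 and Hcrt 18.

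**Figure D1:**
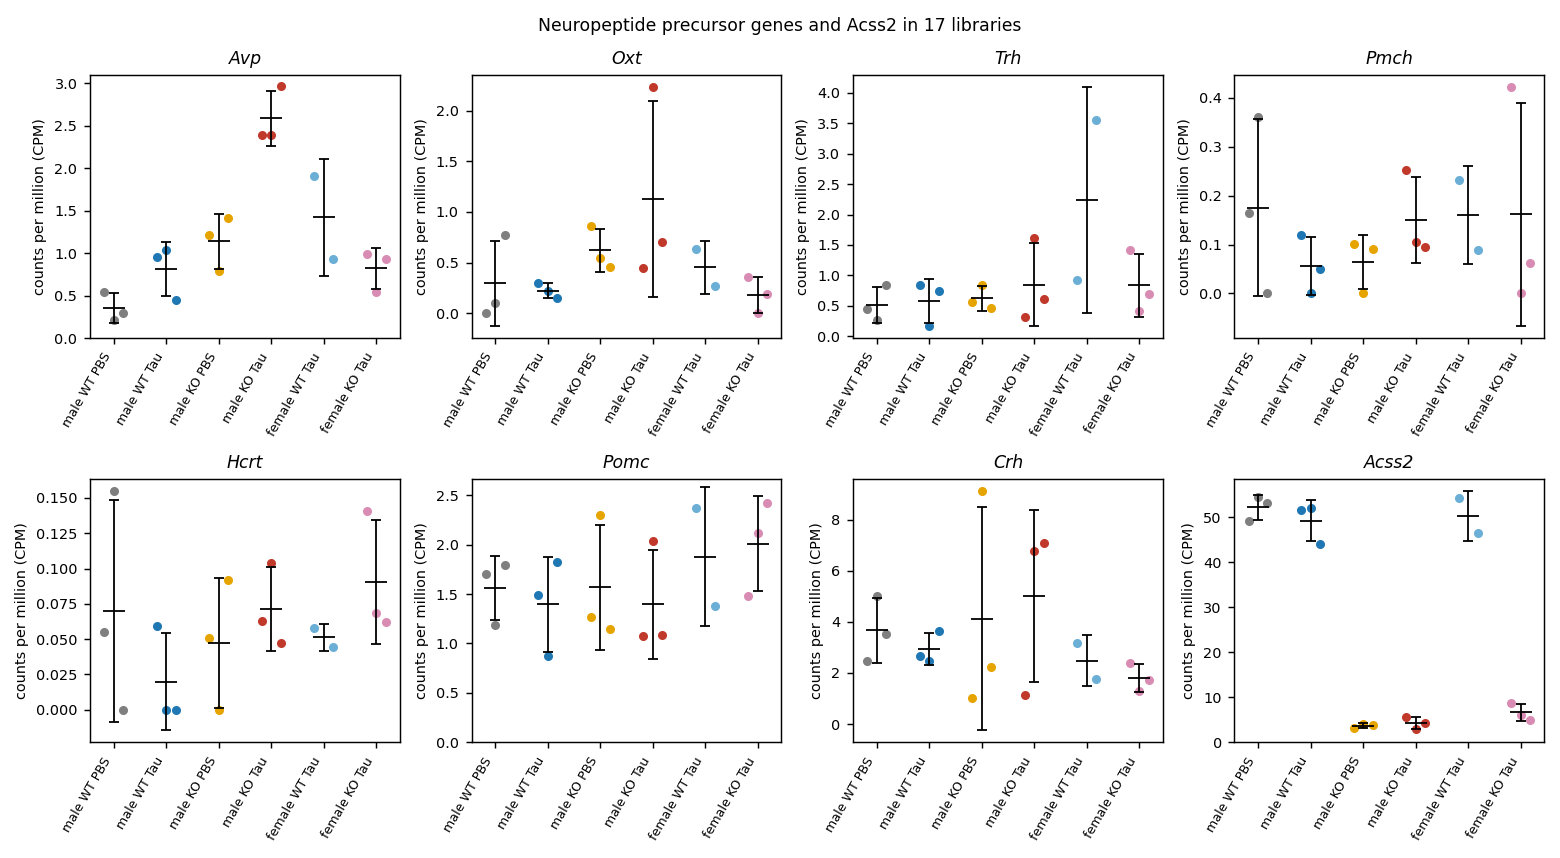
CPM (vertical axis) of the 7 neuropeptide genes and of Acss2, 1 point per library, by group, with black lines for the group mean and bars for 1 SD (bars can reach below 0). Avp in the 3 male KO Tau libraries sat at 2.40 to 2.96 CPM, above the other 14, while the groups of the other 6 peptides overlapped their neighbours in level, and Acss2 split by genotype.

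Avp was highest in KO Tau males and lowest in WT PBS males. The male WT PBS libraries held 10, 4 and 5 Avp counts (0.548, 0.207 and 0.298 CPM), and the male WT Tau libraries 16, 19 and 9 (0.954, 1.04 and 0.443 CPM). The male KO PBS libraries held 24, 13 and 31 (1.22, 0.786 and 1.42 CPM), and the male KO Tau libraries 38, 46 and 63 (2.40, 2.40 and 2.96 CPM). Within males the KO Tau libraries were thus the highest and the WT PBS libraries the lowest, with a single WT Tau library (0.443 CPM) inside the WT PBS range. The female WT Tau libraries held 33 and 21 counts (1.91 and 0.935 CPM), and the female KO Tau libraries 14, 8 and 15 (0.987, 0.547 and 0.933 CPM). In females the KO and WT libraries overlapped, and both groups lay under every male KO Tau library.

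Ordered by mean level, Avp stood at 0.351 ± 0.177 CPM (SD, n = 3) in WT PBS males, 0.813 ± 0.323 in WT Tau males, 0.822 ± 0.240 in KO Tau females, 1.14 ± 0.323 in KO PBS males, 1.42 ± 0.690 in WT Tau females (n = 2) and 2.59 ± 0.327 in KO Tau males. Each group overlapped the next in this order except the last pair, since the highest female WT Tau library (1.91 CPM) was below the lowest male KO Tau library (2.40 CPM). Of 15594 genes, 14 (0.0898%) had all 3 male KO Tau libraries above the other 14, and Avp was the single member among them, a count to which the selection of Avp contributed.

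Between KO Tau and WT PBS males, the comparison that chose Avp, its log2 difference was 2.87 (SE 0.40). It was followed in the order of genes by Fosl2, Sik1 and Per1, at log2 differences of -1.01, -1.22 and -0.88. These genes code for regulators that respond quickly to neuronal activity or to the daily cycle, and are named only as the genes just outside the rank that chose Avp. When each of the 3 male KO Tau libraries was left out in turn, the Avp difference was 2.76 without 713, 2.92 without 711 and 2.94 without 712. Oxt had a log2 difference of 1.99 (SE 0.86) in this comparison, Trh 0.77 (SE 0.66), Crh 0.46 (SE 0.72) and Pomc -0.14 (SE 0.38). By edgeR at an FDR of 0.05, 1 of 15098 genes (0.00662%) was called here, and it was Acss2. The libraries of the 2 groups did not overlap for 14.4% of all genes, nor did they for Avp.

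The other male comparisons each shared the WT PBS or the KO Tau libraries with the one that chose Avp, so their Avp values are not independent of that choice. Set side by side, the log2 difference of Avp was 1.17 (SE 0.43) in WT Tau against WT PBS, 1.75 (SE 0.42) in KO PBS against WT PBS, 1.70 (SE 0.36) in KO Tau against WT Tau and 1.12 (SE 0.35) in KO Tau against KO PBS. The difference between the genotype effects under Tau and under PBS was -0.05 (SE 0.46) on the log2 scale, less than its error. Male KO PBS and male WT Tau, the male groups that the choice of Avp did not use, had overlapping Avp levels of 0.786 to 1.42 and 0.443 to 1.04 CPM.

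**Figure D2:**
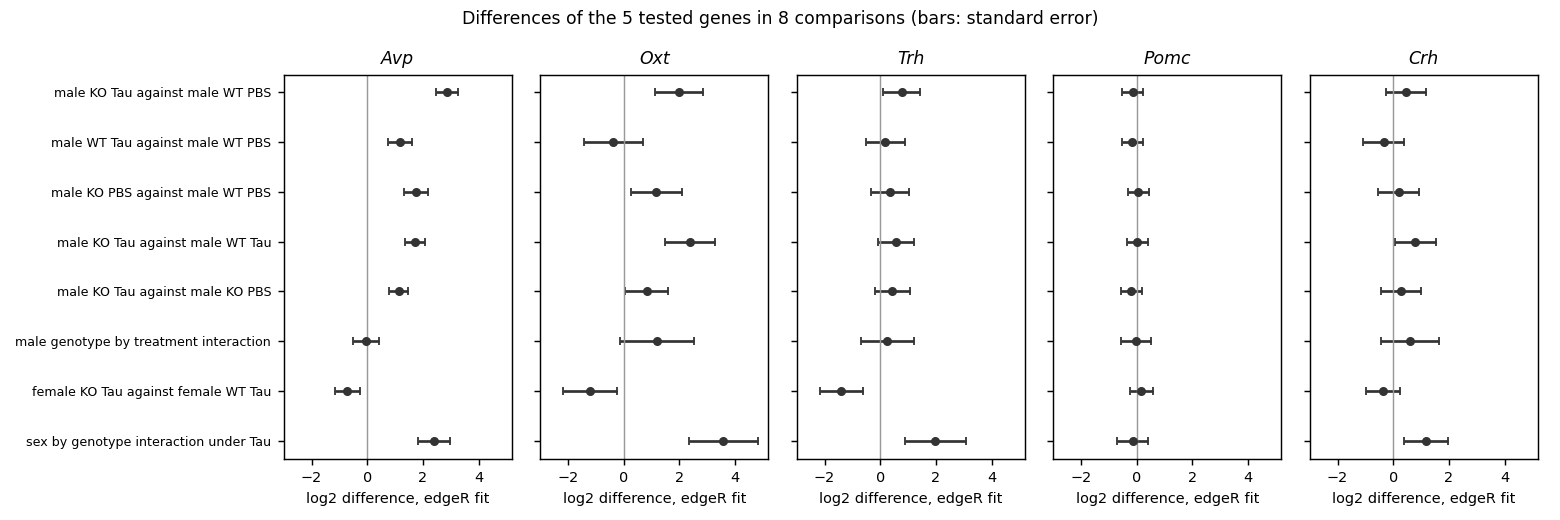
Log2 differences from the edgeR fits (horizontal axis, same range in each panel) for the 5 tested genes in 8 comparisons, with bars for 1 standard error. Avp lies above 0 in the 5 male comparisons of 2 groups and at -0.71 in females, and the Pomc differences stay between -0.20 and 0.16.

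Oxt, which codes for the peptide closest in structure to vasopressin, was lower and more uneven. The male WT PBS libraries held 0, 2 and 13 Oxt counts, the male WT Tau libraries 5, 4 and 3, the male KO PBS libraries 17, 9 and 10, and the male KO Tau libraries 7, 43 and 15. The female WT Tau libraries held 11 and 6, and the female KO Tau libraries 5, 0 and 3. Library male KO Tau 712 alone held 28.1% of all Oxt counts of the series, at 2.24 CPM against at most 0.862 CPM elsewhere.

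The mean level of Oxt was 0.293 ± 0.421 CPM (SD, n = 3) in WT PBS males, 0.222 ± 0.0753 in WT Tau males, 0.621 ± 0.213 in KO PBS males, 1.13 ± 0.972 in KO Tau males, 0.452 ± 0.261 in WT Tau females (n = 2) and 0.180 ± 0.176 in KO Tau females. Every group overlapped its neighbours in the order of means. In males the KO Tau libraries (0.442 to 2.24 CPM) did not overlap the WT Tau libraries (0.148 to 0.298 CPM), nor did they for Avp, beside 12.6% of all genes tested. The Oxt log2 difference there was 2.37 (SE 0.89), and 1.42 without library 712. In KO PBS against WT PBS it was 1.18 (SE 0.91), in KO Tau against KO PBS 0.82 (SE 0.77) and -0.13 without library 712, and in WT Tau against WT PBS -0.37 (SE 1.06). In KO Tau against WT PBS the value of 1.99 became 1.05 without 712 and 4.26 without WT PBS 793, the library that held 13 of that group's 15 Oxt counts. The direction of Oxt in KO Tau against KO PBS thus rested on 1 library.

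Avp and Oxt can be set beside each other library by library, since they are neighbours and are both products of magnocellular neurons. Over the 17 libraries their log2 CPM values had a Pearson r of 0.59 and a Spearman rho of 0.61, as a description of libraries that share dissection and depth. The 3 libraries with the most Avp held 7, 43 and 15 Oxt counts, so that nearly equal Avp levels in 711 and 712 (both 2.40 CPM) went with Oxt levels of 0.442 and 2.24 CPM. The nearest 3 tested genes on each side of the pair, chosen after their values were seen, had log2 differences between -0.28 and 0.12 between KO Tau and WT PBS males.

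**Figure D3:**
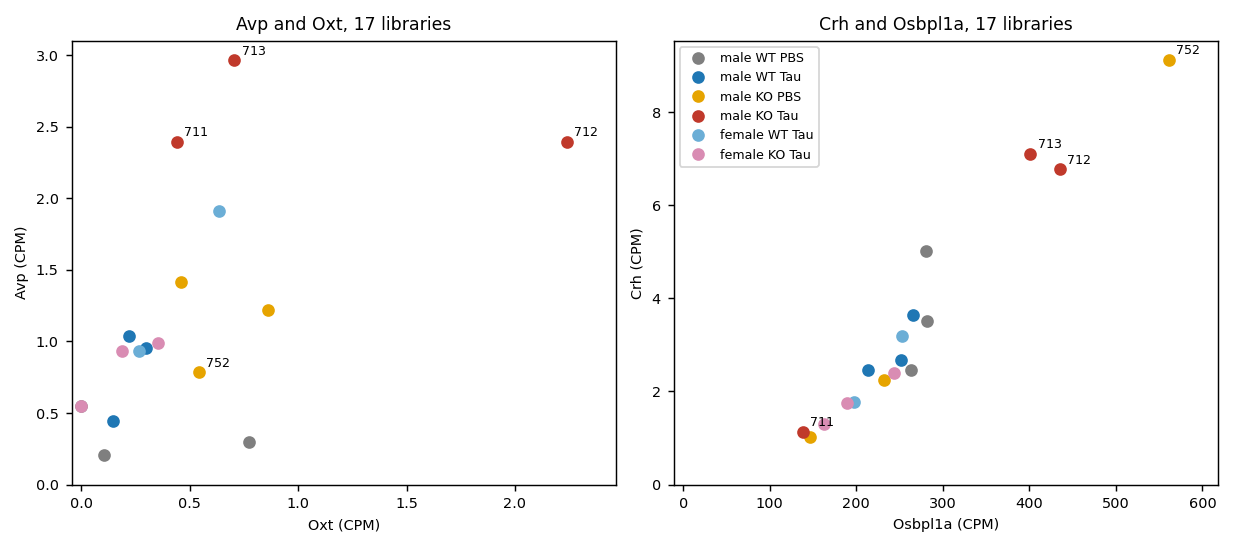
CPM of Avp against Oxt (left) and of Crh against Osbpl1a (right), 1 point per library, coloured by group, with the 3 male KO Tau libraries and male KO PBS 752 labelled (2 points coincide at an Oxt level of 0). Avp is at 2.40 CPM in both 711 and 712 while Oxt is 0.442 and 2.24 CPM, and Crh follows Osbpl1a from 138 to 562 CPM.

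Trh, the releasing hormone of the thyroid axis, was highest in a single female library. The male WT PBS libraries held 8, 5 and 14 Trh counts, the male WT Tau libraries 14, 3 and 15, the male KO PBS libraries 11, 14 and 10, and the male KO Tau libraries 5, 31 and 13. The female WT Tau libraries held 16 and 80, and the female KO Tau libraries 20, 6 and 11. Female WT Tau 341 alone held 29.0% of all Trh counts, at 3.56 CPM, and the next library was male KO Tau 712 at 1.62 CPM. Group means ran from 0.511 ± 0.295 CPM (SD, n = 3) in WT PBS males to 0.848 ± 0.681 in KO Tau males and 2.24 ± 1.86 (n = 2) in WT Tau females, and all neighbouring groups overlapped. In the male comparisons of 2 groups the log2 differences of Trh ran from 0.19 to 0.77, each with an SE of 0.64 to 0.69.

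Pomc differed little between the groups. The male WT PBS libraries held 31, 23 and 30 Pomc counts, the male WT Tau libraries 25, 16 and 37, the male KO PBS libraries 25, 38 and 25, and the male KO Tau libraries 17, 39 and 23. The female WT Tau libraries held 41 and 31, and the female KO Tau libraries 21, 31 and 39. Its group means lay between 1.40 and 2.01 CPM, and all neighbouring groups overlapped. No log2 difference of Pomc exceeded its standard error in any of the 8 comparisons, the values running from -0.20 to 0.16.

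Pmch and Hcrt, the markers of the lateral hypothalamus, were at or near the limit of detection. Pmch held at most 7 counts in a library and no more than 3 in 13 of 17 libraries, with 0 in 4. Hcrt held at most 3 counts in any of the 17 libraries, with 0 in 4. The group means of Pmch lay between 0.0562 and 0.175 CPM and those of Hcrt between 0.0199 and 0.0905 CPM, so a difference between groups was not detectable at this depth. Neither gene passed the filter on low counts, so 5 of the 7 members entered the tests. Pmch also overlaps Parpbp on the opposite strand, from which the authors' stranded counting would separate it.

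Crh had the highest median CPM of the members and a wide range within the KO male groups. The male WT PBS libraries held 45, 97 and 59 Crh counts (2.47, 5.01 and 3.52 CPM), and the male WT Tau libraries 45, 45 and 74 (2.68, 2.47 and 3.64 CPM). The male KO PBS libraries held 20, 151 and 49 (1.01, 9.13 and 2.24 CPM), and the male KO Tau libraries 18, 130 and 151 (1.14, 6.77 and 7.10 CPM). The highest and the lowest Crh library of the series were both male KO PBS, so this genotype spanned the whole range. The female WT Tau libraries held 55 and 40 (3.18 and 1.78 CPM), and the female KO Tau libraries 34, 19 and 28 (2.40, 1.30 and 1.74 CPM).

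The Crh log2 differences were smaller than or close to their errors. They were 0.19 (SE 0.73) in KO PBS against WT PBS, -0.34 (SE 0.74) in WT Tau against WT PBS, 0.80 (SE 0.73) in KO Tau against WT Tau and 0.26 (SE 0.72) in KO Tau against KO PBS. Without library 752 the value in KO PBS against WT PBS was -1.12 and in KO Tau against KO PBS 1.58, and without WT PBS 791 the former was -0.033. In KO Tau against KO PBS the value fell below 0 without any 1 of KO Tau 712 (-0.0026), KO Tau 713 (-0.073), KO PBS 751 (-0.20) or KO PBS 753 (-0.045). Without 711 the value in KO Tau against WT PBS was 0.91, in place of 0.46.

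Crh moved with markers of neighbouring tissue. The 3 libraries with the most Crh, male KO PBS 752 and male KO Tau 713 and 712, had the 3 highest sums over 8 neocortical genes, at 334, 247 and 301 CPM. The 2 libraries with the least Crh, male KO PBS 751 and male KO Tau 711, had the lowest sums, at 92.2 and 96.2 CPM, and all 8 genes of the list were detected. Rspo1, a gene of the neocortical layers, was 32.7 CPM in 752, 16.9 in 713 and 10.0 in 712, against at most 5.79 CPM elsewhere. Dentate granule cell genes went the other way, with 142 CPM in 752, 196 in 712 and 228 in 713, against 588 CPM in 751 and 433 CPM in 711. Exceptions were female KO Tau 324 and male KO PBS 753, where these genes summed to only 175 and 222 CPM while Crh was at 1.30 and 2.24 CPM. The part of dissection in the Crh levels was not tested, and in bulk tissue fewer cells of a type and less RNA per cell cannot be told apart.

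By a rule that took the 5 genes with the highest Pearson r over 17 libraries among 15593 others, the genes most like Crh were Osbpl1a (r = 0.972), Mypn (0.960), Igfbp6 (0.959), Efhd2 (0.951) and Mark1 (0.949). Igfbp6 was 66.9, 51.7 and 61.2 CPM in 752, 712 and 713, against 8.01 and 5.93 CPM in 751 and 711, the same split as Crh. No gene came as close to Pomc, Oxt or Avp. The highest r was 0.847 for Pomc (Kitl, then 1700003F12Rik, Bnip3, Jade1 and Gnal), 0.746 for Oxt (Ccdc124, then Fam65c, Rassf10, Nsrp1 and Pdap1) and 0.718 for Avp (Gm4890, then Stk11, 1700021N21Rik, Gstm2 and Zfp110). Of the 5 members that passed the filter, none was among the 5 genes most like another. These values describe 17 libraries and carry no test.

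The female comparison was the one that compared no library used to choose Avp, so its tests could be read. In KO Tau against WT Tau the log2 difference was -0.71 (SE 0.43) for Avp, -1.22 (SE 0.98) for Oxt, -1.40 (SE 0.77) for Trh, -0.38 (SE 0.61) for Crh and 0.16 (SE 0.41) for Pomc. None of the 5 passed, each with an FDR of 0.997 by edgeR's quasi-likelihood test, none had an unadjusted p under 0.05, and DESeq2 called none. That fit took its estimate of spread from all 11 Tau libraries, among them the male KO Tau libraries on which Avp was chosen. By edgeR on the 5 female libraries alone, which tested 4 of the members, the log2 difference of Avp was -0.70, and none was called (0 of 15078 genes). In this comparison 1 of 15419 genes (0.00649%) was called. For none of the 5 members were the libraries of the 2 groups apart, against 16.0% of all genes. The Trh value was -0.07 without library 341, which is the library with 80 Trh counts. With 2 and 3 libraries a difference of this size could not be told from the spread.

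The difference between the male and the female genotype effects under Tau was 2.41 (SE 0.57) on the log2 scale for Avp, 3.58 (SE 1.25) for Oxt, 1.98 (SE 1.09) for Trh, 1.18 (SE 0.80) for Crh and -0.14 (SE 0.56) for Pomc. It used the male KO Tau libraries on which Avp was chosen, so it is given as a value with no test. No gene of 15419 was called in this comparison (0%). Besides sex, the female libraries differed from the male ones in the thalamic markers above, and the parts of sex and dissection cannot be told apart.

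Over the 5 male comparisons of 2 groups and the 2 interactions, edgeR called none of the 5 tested members at an FDR of 0.05, against 0% of all genes in WT Tau against WT PBS, KO Tau against KO PBS and the interactions, and 0.00662% in KO PBS against WT PBS and in KO Tau against WT Tau, where Acss2 was the gene called. All of these comparisons share libraries with the one that chose Avp, so nothing about the members is read from these counts. The libraries did not overlap for Avp in KO PBS against WT PBS, beside 11.7% of all genes, or in KO Tau against KO PBS, beside 9.01%. In WT Tau against WT PBS no member was apart, beside 12.2%. The median log2 difference over the 5 members was 0.77 in KO Tau against WT PBS, 0.33 in KO PBS against WT PBS and -0.16 in WT Tau against WT PBS. It was 0.80 in KO Tau against WT Tau, 0.43 in KO Tau against KO PBS and -0.71 in females. The medians over all genes lay within 0.02 of 0. Over 5 members such a median is the value of a single gene, as for Trh in KO Tau against WT PBS (0.77, SE 0.66).

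The spread within groups set how much of this could be tested. The biological coefficient of variation in the male fit was 0.230 for Avp, 0.288 for Pomc, 0.486 for Trh, 0.604 for Crh and 0.649 for Oxt, against a median of 0.142 over all genes tested.

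Genes that mark hypothalamic tissue were looked at beside these levels. Of 14 transcription factors of the hypothalamus, 8 never exceeded 3 counts in a library. Sim1 and Otp, which specify the neurons that make vasopressin and oxytocin and are named here after their values were seen, held at most 4 and 3 counts. In the 3 male KO Tau libraries, where Avp held 38 to 63 counts, Sim1 was at 0, 2 and 0 and Otp at 2, 1 and 1. The series held no library of hypothalamus, so the Sim1 and Otp counts that would go with this much Avp are not known. Nothing about carried-over tissue is read from these counts. The summed level of the list was 2.73 to 4.10 CPM in KO Tau males and 3.10 to 3.64 CPM in WT PBS males, so male KO Tau did not stand apart in this sum. It was 3.10 to 3.56 CPM in WT Tau males, 2.69 to 4.23 in KO PBS males, 6.77 to 9.26 in WT Tau females and 4.31 to 7.84 in KO Tau females.

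Much of the female level came from Foxb1, a gene of the mammillary region and thalamus, which reached 1.23 to 4.17 CPM in 4 of 5 females but no more than 0.219 CPM in males. The largest part of the list was Tbx3, with 835 counts over the 17 libraries against 198 for Foxb1, the next gene. The sums in males thus followed Tbx3 and say little about the genes that never exceeded 3 counts. Tbx3 ranged from 1.47 to 4.75 CPM, Isl1 from 0 to 1.03 and Nkx2-1 from 0 to 0.609. In each comparison 2 of the 14 genes passed the filter on low counts, and neither was called.

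A list of 10 other hypothalamic peptides was summed in the same way. The list summed to 3.56 to 4.44 CPM in WT PBS males, 4.17 to 5.27 in WT Tau males, 2.93 to 9.61 in KO PBS males, 5.17 to 8.08 in KO Tau males, 2.72 to 4.52 in WT Tau females and 3.42 to 7.65 in KO Tau females. The KO Tau males were above the WT PBS males in this sum and overlapped every other group except female WT Tau. Its largest part was Cartpt, which is also made in neocortex and striatum and reached 7.74 CPM in male KO PBS 752 and 6.57 CPM in male KO Tau 712. Kiss1 was highest in 752, 713 and 712 (0.846, 0.517 and 0.417 CPM), the libraries with the most Crh. Gal reached 1.56 CPM in female WT Tau 331, and Agrp ran from 0.152 to 0.776 CPM. In all, 3 of the 10 (Npvf, Nms and Ucn3) never exceeded 3 counts, and 2 could be tested in males, of which none was called.

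Pituitary genes were at or near 0. Gh and Fshb had no count in any of the 17 libraries, which allows up to 0.134 to 0.212 CPM in a library, and 5 of the 8 genes never exceeded 3 counts. Tshb, Lhb and Prl reached at most 0.493, 0.443 and 0.401 CPM. The list summed to 0.362 to 0.438 CPM in WT PBS males, 0.477 to 0.738 in WT Tau males, 0.242 to 0.824 in KO PBS males, 0.365 to 0.800 in KO Tau males, 0.695 to 0.801 in WT Tau females and 0.137 to 0.435 in KO Tau females. None of its genes passed the filter on low counts.

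**Figure D4:**
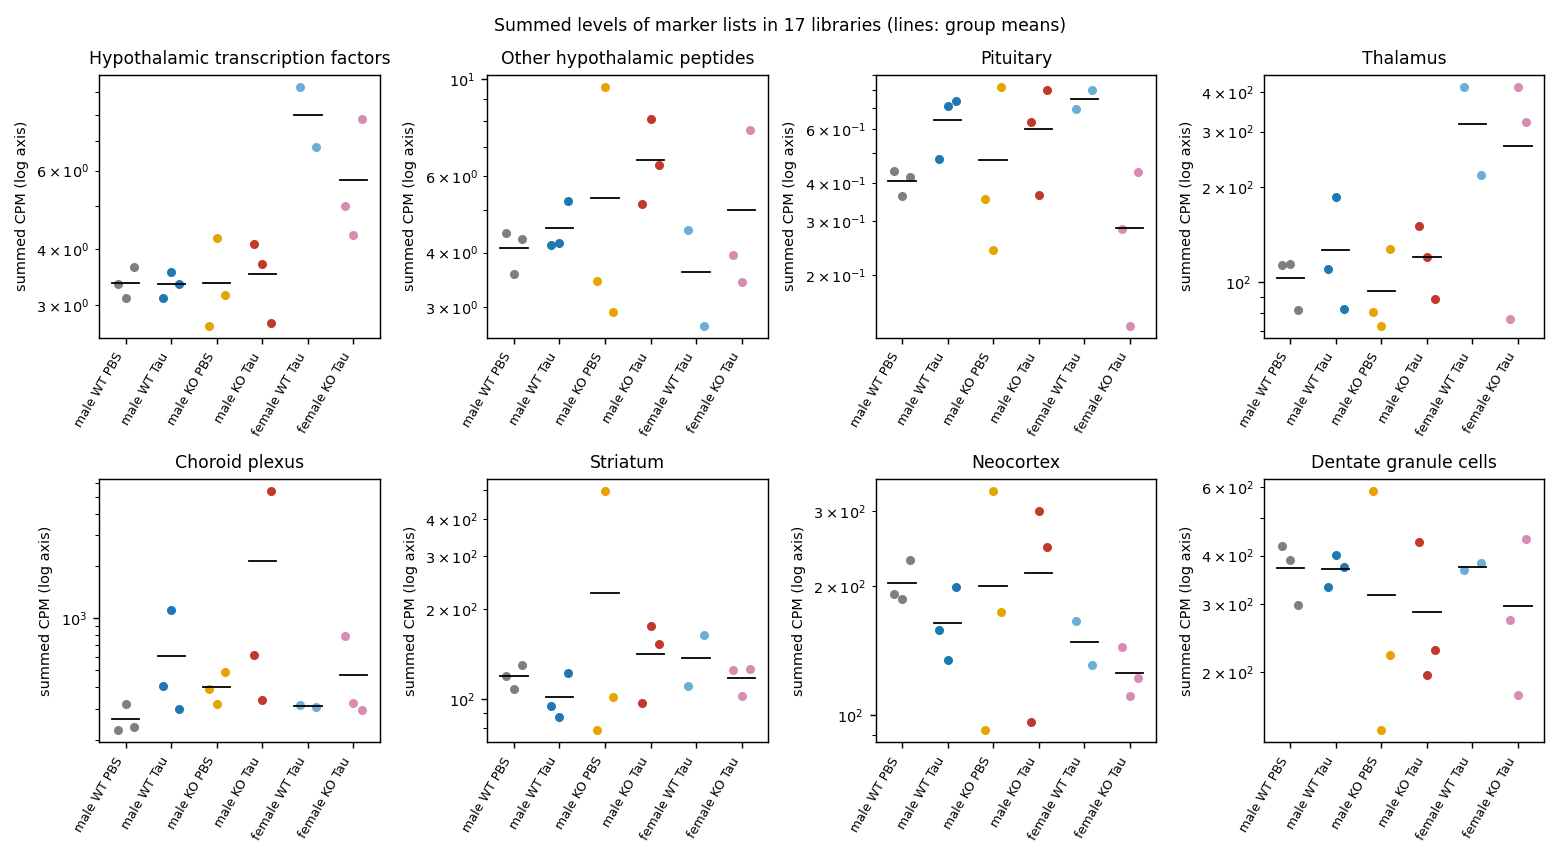
Summed CPM (vertical log axis) of 8 marker lists, 1 point per library by group, with lines for group means. Male KO Tau lies within the range of other male groups for the hypothalamic factors (2.73 to 4.10 CPM), 1 male KO Tau library reaches 5418 CPM in choroid plexus, and 752 reaches 497 CPM in striatum.

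The sum over the choroid plexus list was higher in each KO Tau male than in each WT PBS male, by a narrow margin in 712 (338 against at most 322 CPM). Enpp2 had by far the highest median of the list, 274 CPM over the 17 libraries, and was never under 176 CPM. The median was 44.2 CPM for Ttr and 0.955 CPM for Folr1, so the sum is not a result gene by gene. All 14 choroid plexus genes were detected and tested, and none was called. Gene by gene, all 14 had log2 differences above 0 in KO Tau against WT PBS males (median 3.80). The same held in WT Tau against WT PBS (1.6), KO PBS against WT PBS (0.76), KO Tau against WT Tau (1.91) and KO Tau against KO PBS (2.93). The KO Tau values include library 713. All 14 were also above 0 in females (1.1), where Avp was at -0.71, while Avp was above 0 in each of these male comparisons. The list summed to 226 to 322 CPM in WT PBS males, 299 to 1115 in WT Tau males, 321 to 487 in KO PBS males, 338 to 5418 in KO Tau males, 309 to 316 in WT Tau females and 294 to 792 in KO Tau females. Among KO Tau males, Ttr alone reached 3775 CPM in 713 and was 42.0 CPM in 712. Library 712, with 338 CPM of choroid plexus genes, had an Avp level of 2.40 CPM, and the Avp difference without 713 was 2.76 as given above. Male WT Tau 772, with 1115 CPM, had an Avp level of 1.04 CPM, the highest of its group. The highest choroid plexus sum and the highest Avp of a group also met in male KO Tau 713 and male KO PBS 753 (487 and 1.42 CPM). They met again in female KO Tau 314 (792 and 0.987 CPM). Female WT Tau 331 had the higher sum of its group (316 CPM) and its higher Avp (1.91 CPM). Gene by gene, however, 331 was the lowest of the 17 libraries for Ttr (7.12 CPM), Clic6 (1.45), Aqp1 (0.23) and Tmem72 (0). Its sum therefore does not show more choroid plexus signal. Male WT PBS 792 had the highest sum of its group (322 CPM) and its lowest Avp (0.207 CPM). How much of the Avp level came from this tissue was not tested. The 5 ependymal genes summed to 12.1 to 20.3 CPM in KO Tau males and 5.15 to 15.9 CPM in WT PBS males, which overlapped.

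Sums over genes of the thalamus and habenula, which lie next to the dorsal hippocampus, overlapped between the male groups. Gene by gene, all 8 thalamic genes had log2 differences above 0 in KO Tau against WT PBS males (median 0.32). The same held in WT Tau against WT PBS (median 0.36) and KO Tau against KO PBS (0.27). In KO Tau against WT Tau 3 of the 8 were above 0 (median -0.07), and in KO PBS against WT PBS 5 were (0.06). The 8 thalamic genes summed to 88.6 to 151 CPM in KO Tau males, 82.0 to 114 in WT PBS males, 82.6 to 186 in WT Tau males, 72.7 to 128 in KO PBS males, 219 to 417 in WT Tau females and 76.8 to 415 in KO Tau females. The 4 habenular genes summed to 2.14 to 2.78 CPM in KO Tau males, 1.97 to 2.64 in WT PBS males, 2.02 to 3.73 in WT Tau males, 2.03 to 10.8 in KO PBS males, 3.03 to 5.90 in WT Tau females and 1.48 to 10.5 in KO Tau females. The highest habenular sums were those of male KO PBS 752 and female KO Tau 325. All 8 thalamic genes and 2 of the 4 habenular genes could be tested in males (3 in the Tau fit), and none was called. Female WT Tau 331, which had the most thalamic signal (417 CPM), also had the highest Avp level outside male KO Tau, while female KO Tau 324, at 415 CPM, had 0.547 CPM of Avp. The part of carried-over tissue in the Avp levels was not tested.

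Receptors of the peptides were tested beside them. Of 13 receptor genes 10 could be tested in males, and none was called in any comparison. Their median log2 difference was -0.19 in KO Tau against WT PBS, -0.01 in KO PBS against WT PBS, -0.17 in WT Tau against WT PBS, -0.14 in KO Tau against WT Tau, -0.20 in KO Tau against KO PBS and -0.04 in females. Mchr1, the receptor for melanin-concentrating hormone, was at 7.53 to 25.3 CPM, Crhr1 at 4.85 to 29.8, Oxtr at 3.22 to 11.5 and Trhr at 0.505 to 8.83. Oxtr was 3.22, 7.56 and 5.83 CPM in KO Tau males and 7.12, 6.30 and 11.5 CPM in WT PBS males, and the groups overlapped.

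The 3 vasopressin receptors, named as the partners of Avp though the naming rule did not choose them, were low. Avpr1b, the receptor of CA2 neurons, reached 1.37 CPM and was at 0.757, 0.0521 and 0.517 CPM in KO Tau males against 0.493, 0.775 and 0.179 CPM in WT PBS males. Avpr1a reached 0.477 CPM and Avpr2 0.249 CPM, the latter with at most 4 counts in a library.

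Genes that bind, degrade or process the peptides were also measured. The binding and breakdown list summed to 80.3 to 86.7 CPM in KO Tau males, below each other male library (92.8 to 114 CPM). It summed to 74.6 to 103 CPM in WT Tau females and 76.8 to 110 CPM in KO Tau females, so KO Tau males were not the lowest of the series. How many of all genes set KO Tau males below the other males was not counted. Of the binding and breakdown genes, Crhbp (which sequesters Crh) was at 12.3 to 44.5 CPM, Trhde (which degrades Trh) at 22.3 to 54.3 and Lnpep (which degrades oxytocin and vasopressin) at 15.1 to 46.7. All 3 had lower values in KO Tau males than in WT PBS males, by log2 differences of -0.27, -0.23 and -0.30, and none was called. The 9 genes of peptide processing and granules summed to 5464 to 5953 CPM in KO Tau males and 5483 to 5982 CPM in WT PBS males. Cpe, the carboxypeptidase of granules, had a median of 3106 CPM over the 17 libraries, Chgb 869, Pcsk1n 572 and Pcsk2 350. None of the 9 was called in any comparison, and their median log2 difference was -0.06 in KO Tau against WT PBS and -0.09 in females.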

How the data were processed

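Per the study's methods and the submitters' processing notes, the authors aligned reads with STAR 2.5.2 to GRCm38 (mm10) and counted exonic reads per gene in reverse-stranded mode with HTSeq 0.9.1. The deposited table gave unnormalized read counts, by gene symbol, for 17 libraries. The annotation release was not given in the sources used here. The 7 genes, the 14 marker lists and the tests were chosen with earlier results of these data known. Genes named from the lists were those called, plus up to 4 per list with the highest mean CPM (widest range for lists foreign to the hippocampus). For each member with at least 10 counts in at least 2 libraries, the 5 most correlated genes were named, except that those of Trh are not reported here.

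Counts were tested with edgeR 4.0.16 in R 4.3.3 (quasi-likelihood F-test, TMM factors of 0.955 to 1.07, filterByExpr with a minimum count of 10 and total of 15, Benjamini-Hochberg FDR of 0.05). The 12 male libraries made 1 fit and the 11 Tau libraries another. The SE was the log2 difference over the square root of F. DESeq2 1.42.0, RLE factors, no filter, other library sets and leave-outs were alternatives. The fit was tested on simulated data with the same spread for every gene, which was lower than that of each tested member. Changes were placed only in genes with more counts than Oxt and Trh held. That test therefore does not show how the fit performs for the members. Log2 CPM for correlations used a prior count of 2. Positions and exon lengths came from GENCODE and promoters from RefSeq, which had 6 of the 7 members. No pair among 136 pairs of libraries held identical counts. The labels call the libraries biological replicates, and the p-values measure the spread between them.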

Additional observations from a re-analysis of the deposited data

How the results depend on the processing

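No paired analysis was possible because the groups share no replicate numbers. Of 40 log2 differences (5 members in 8 comparisons), 20 kept their direction under every alternative. Among them were 7 of the 8 Avp values, the exception being the male interaction, and the sex interaction of all members but Pomc. For Avp, every comparison but the female one used libraries on which it was chosen. A kept direction of Avp there is not independent of that choice and is no support for it. The other 20 log2 differences turned sign in some leave-out of 1 library, and none turned under another test, normalization, filter or set of libraries. The count of members called was 0 by edgeR in KO Tau against WT PBS, but 1 (Avp) by DESeq2 on the 12 male libraries (15 genes called in all, 0.0750%) and by edgeR on all 17 (3 genes, 0.0192%). For KO Tau against WT Tau it was 0, and 1 (Avp) by DESeq2 on the 2 groups alone (28 genes, 0.188%). In KO Tau against WT PBS, DESeq2 on the 2 groups alone with no library left out called 22 genes (0.179%) and no member. Over the leave-outs the count of members called was 0 to 1 in that comparison. There DESeq2 on the 2 groups called Avp in each of 6, beside 2 to 1029 genes in all (0.0104% to 7.13%). The count was 0 to 3 in KO Tau against WT Tau, where DESeq2 without library 711 called Avp, Oxt and Crh beside 1378 genes in all (9.30%). The KO Tau and WT PBS libraries are those on which Avp was chosen, so no test is read from these calls. The cause was not tested.

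Over the leave-outs by edgeR and DESeq2, the log2 differences that turned sign ranged as follows. Between KO Tau and WT PBS males they ran from -0.094 to 1.31 for Trh and -0.51 to 0.020 for Pomc. In WT Tau against WT PBS they ran from -0.996 to 2.06 for Oxt, -0.16 to 0.74 for Trh and -0.41 to 0.092 for Pomc. In KO PBS against WT PBS they ran from -0.31 to 0.26 for Pomc and -1.12 to 0.68 for Crh. Between KO Tau and WT Tau they ran from -0.28 to 0.95 for Trh and -0.35 to 0.27 for Pomc. Between KO Tau and KO PBS they ran from -0.15 to 1.18 for Oxt, -0.44 to 0.79 for Trh, -0.58 to 0.17 for Pomc and -0.23 to 1.58 for Crh. In the male interaction they ran from -0.51 to 0.22 for Avp, -1.08 to 1.78 for Oxt, -0.59 to 0.61 for Trh and -0.41 to 0.33 for Pomc. In females they ran from -0.16 to 0.56 for Pomc and -0.73 to 0.055 for Crh, and in the sex interaction from -0.54 to 0.18 for Pomc. Where a leave-out left female WT Tau with 1 library, that library was assumed to vary like the others. By Spearman rho in place of Pearson r, Osbpl1a stayed the gene most like Crh (rho 0.973) and Gm4890 ranked 2 for Avp (0.738), while Stk11 ranked 182 for Avp.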
